A study of Mus musculus with 3 samples.

Results

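Interferon gamma is the main cytokine that NK cells secrete, and its gene Ifng was followed here together with the genes through which NK cells sense IL-12 and IL-18. The 8 genes, taken by symbol from the 25906 genes of the deposited matrices, were Ifng, the IL-12 receptor chains Il12rb1 and Il12rb2, the IL-18 receptor chains Il18r1 and Il18rap, the transcription factor Stat4, and the kinases Tyk2 and Jak2. All 8 passed the mean level of 10 CPM over the groups that 7957 genes reached, where CPM are summed UMI counts scaled to the same total in each group. Il12rb1 passed it narrowly, at a mean of 11.3 CPM. Live NK1.1+ NKp46+ cells had been sorted from the lung and the blood of female wild-type mice aged 9 weeks and profiled by droplet single-cell RNA sequencing with unique molecular identifiers (UMIs). There were 3 libraries, 1 from naive mice that received no tumor cells and 1 each from mice killed 6 h or 14 days after an intravenous injection of PyMT cells, a mouse mammary tumor line. Within each library, lung and blood cells had been marked with different hashtags, which gave 6 groups of 2069 to 4680 cells: naive lung 3676, naive blood 4367, 6 h lung 4680, 6 h blood 2746, 14 days lung 3575 and 14 days blood 2069.

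Tumor cells placed in a vein seed the lung without leaving a primary tumor, so the 14 days group models metastases in place and not their release from a breast tumor. The lung had been digested with enzymes and the blood had not, and tissue and digestion cannot be told apart. Each condition was 1 library, so time and library cannot be told apart either, and no test between conditions was possible. Every interval below is a 95% counting interval (exact Poisson for levels, exact binomial for ratios and shares). The intervals of differences between log2 ratios are normal approximations. All of them cover counting error and not the spread between mice or between cells. Ifng and Il12rb2 varied more between cells than Poisson counts do, as given below, and so did Stat4, Il18r1 and Il18rap. With cells thinned to equal depth, the ratio of variance to mean was 1.62 to 2.52 for Stat4 across groups. It was 1.86 to 2.01 for Il18r1 and 1.40 to 1.78 for Il18rap. The intervals of all these genes are therefore too narrow. Median depth was 5910 to 7524 UMIs per cell. NK markers were high in each group (Ncr1, Klrb1c, Klrd1, Nkg7 and Eomes summed to 5103 to 7396 CPM), against 31.1 to 57.8 CPM for 4 T cell markers and 0.85 to 1.59 CPM for B cell markers. Summed T cell markers moved with time (31.1, 37.8 and 57.8 CPM in naive, 6 h and 14 days lung, and 35.0, 38.5 and 55.6 CPM in blood). So did 5 ILC1 markers (36.4, 37.4 and 98.0 CPM in lung, and 30.2, 39.5 and 72.9 CPM in blood). In blood 5 myeloid markers summed to 24.1, 48.6 and 91.0 CPM, but they went different ways. Lyz2 was at 0.60 CPM in naive blood and 89.3 CPM in 14 days blood, while S100a8 and S100a9 went from 9.41 and 13.3 CPM to 0. The part of such cells in the differences from naive was not tested. Libraries shared 7 to 16 cell barcodes in pairs.

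IL-12 binds a receptor of Il12rb1, a chain shared with the IL-23 receptor, and Il12rb2, the chain that recruits Stat4. Tyk2 sits on the first chain and Jak2 on the second, and both phosphorylate Stat4, which enters the nucleus and activates Ifng. IL-18 binds Il18r1, and Il18rap then joins the complex, which signals through Myd88 and Irak kinases to NF-kB. The cytokines act together on NK cells, and resting NK cells are known to carry Ifng mRNA before they secrete the protein.

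Positions of the 8 genes are on the GRCm38 assembly and come from GENCODE M21. Ifng is a compact gene (chr10:118441046-118445892, plus strand, 4847 bases), whereas Il12rb2 (chr6:67291318-67376188, minus strand, 84871 bases) and Stat4 (chr1:51987148-52107189, plus strand, 120042 bases) are in the longest of 5 equal classes of gene span. Il18r1 (chr1:40465552-40500854) and Il18rap (chr1:40515362-40551705) are neighbors on the same strand. The remaining genes are Il12rb1 (chr8:70808449-70821424), Tyk2 (chr9:21104068-21131243, minus strand) and Jak2 (chr19:29251828-29313080).

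Promoter sequences from RefSeq were used for 7 of the 8 genes. Those of Ifng and Il12rb2 are shown because these are the cytokine gene itself and the receptor gene whose level differed most between groups. Each run holds the 250 bases before the annotated start (GRCm38.p6, chr10:118440796-118441045 on the plus strand for Ifng and chr6:67376189-67376438 on the minus strand for Il12rb2), 5′ to 3′ in the direction of transcription. Capitals mark the letters TTCNNNGAA, the core shared by STAT sites, and in Ifng also TATAAA.
Ifng: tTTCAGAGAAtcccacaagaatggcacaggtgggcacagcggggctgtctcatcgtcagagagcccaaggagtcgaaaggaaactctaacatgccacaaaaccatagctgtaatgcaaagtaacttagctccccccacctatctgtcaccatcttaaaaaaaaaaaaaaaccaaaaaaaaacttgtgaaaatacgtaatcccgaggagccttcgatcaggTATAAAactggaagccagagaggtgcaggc
Il12rb2: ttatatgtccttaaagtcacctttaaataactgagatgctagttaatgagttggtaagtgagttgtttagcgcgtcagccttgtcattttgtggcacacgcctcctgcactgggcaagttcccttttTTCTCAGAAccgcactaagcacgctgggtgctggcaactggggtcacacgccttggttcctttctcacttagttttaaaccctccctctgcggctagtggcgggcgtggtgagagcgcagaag
The TTCNNNGAA letters, which read the same on both strands, began 249 bases before the start in Ifng and 123 bases before it in Il12rb2. The window of a later start of Il18r1 held them at 219 and 152 bases before that start, and no window of Il18rap, Stat4, Tyk2 or Jak2 did. Over all 32851 RefSeq mouse promoter windows of this length, 7.02% held the core on 1 strand or the other. TATAAA stood 30 bases before the Ifng start and is held by 12.4% of the windows, its reverse complement TTTATA included. These matches describe the letters and do not show that a factor binds there.

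Ifng mRNA was present in all 6 groups and was higher in lung than in blood in each library, while its level summed over all lung cells differed little between times. Its level was 117 CPM in naive lung, 127 in 6 h lung and 114 in 14 days lung. In blood it was 81.7 CPM in the naive group, 85.3 at 6 h and 64.3 at 14 days. Thus the 3 lung groups lay above the 3 blood groups, with the highest group 1.98-fold over the lowest. The log2 ratio of lung over blood was 0.52 (0.44 to 0.60) in naive mice, 0.58 (0.50 to 0.66) at 6 h and 0.83 (0.73 to 0.93) at 14 days. The ratio at 14 days exceeded the naive one by 0.30 (0.18 to 0.43). Against naive, lung Ifng differed by a log2 ratio of 0.12 (0.049 to 0.19) at 6 h and −0.042 (−0.12 to 0.031) at 14 days. The 6 h ratio was 0.036 relative to genes of like span. The 14 days ratio turned to 0.12 when library totals were replaced by median-of-ratios scaling, so lung Ifng at 14 days had no settled direction. In blood the ratios were 0.062 (−0.026 to 0.15) and −0.35 (−0.45 to −0.24), and the latter came to −0.21 under that scaling and to −0.11 in thinned cells without stress genes. In the order of the levels, naive lung and 14 days lung did not differ beyond counting error, and neither did 6 h blood and naive blood. A same-strand gene model within Ifng, Gm49751, was counted at 5.55 to 11.8 CPM, and how reads in the shared stretch were divided is not given in the sources used here.

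**Figure D1:**
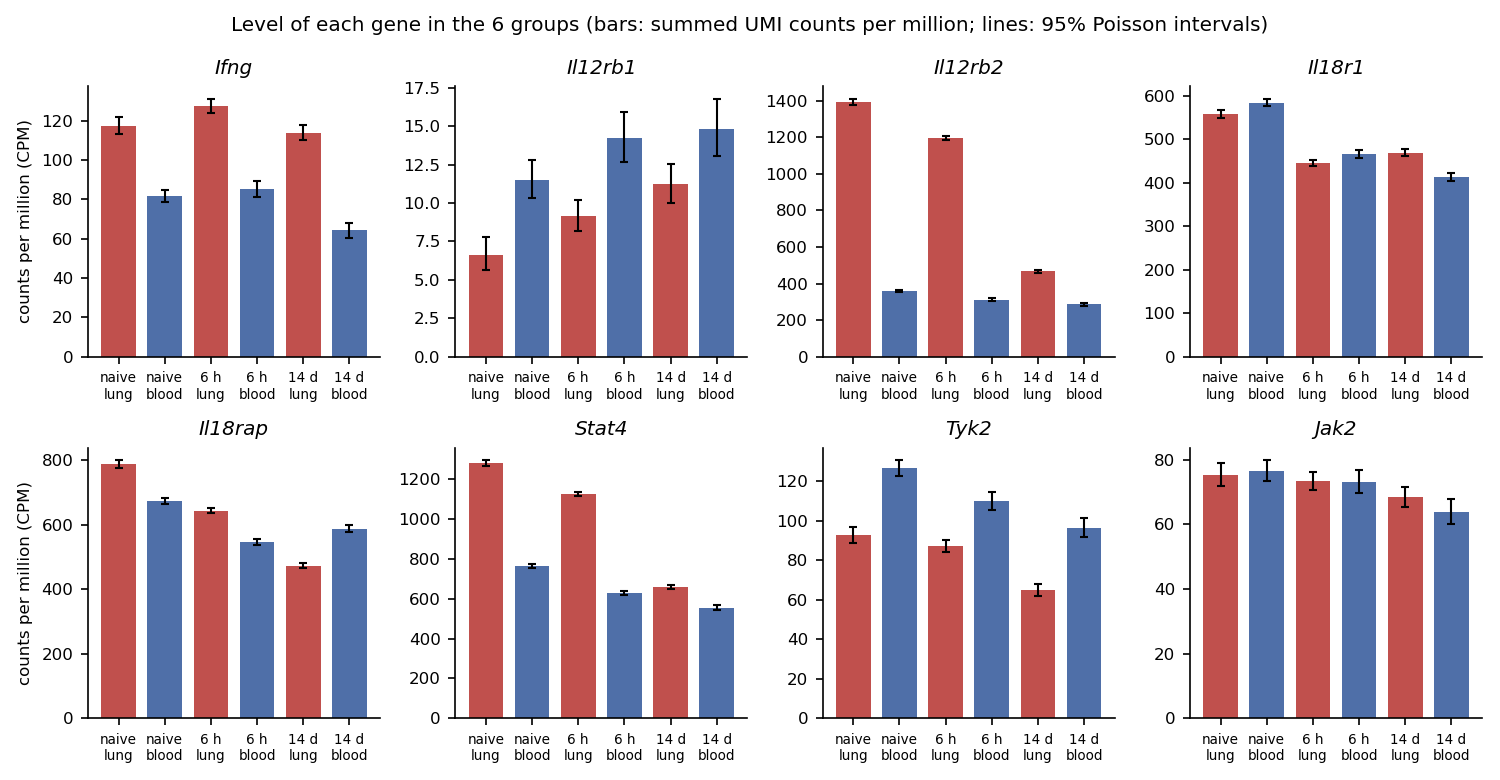
Level of each of the 8 genes in the 6 groups, in CPM on a linear axis from 0; red bars are lung, blue bars are blood, and lines are 95% Poisson intervals of 1 library each. Il12rb2 stands at 1393 and 1195 CPM in naive and 6 h lung and at 468 CPM in 14 days lung, and the 3 Ifng lung bars are above the 3 blood bars.

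The chains of the IL-12 receptor had opposite patterns. Il12rb2, the Stat4-recruiting chain, was at 1393 CPM in naive lung, 1195 in 6 h lung and 468 in 14 days lung. In blood it was at 360 CPM in the naive group, 313 at 6 h and 288 at 14 days. Naive and 6 h lung therefore stood far above the other 4 groups, and no neighboring pair in the order of the 6 levels was within counting error. Lung over blood, Il12rb2 was 3.87-fold higher in naive mice (log2 ratio 1.95, 1.92 to 1.98) and 3.82-fold higher at 6 h (1.93, 1.90 to 1.97). These ratios ranked 76 and 75 from the top among the 7957 genes tested. At 14 days the log2 ratio was 0.70 (0.65 to 0.75), lower than the naive one by a log2 difference of −1.25 (−1.31 to −1.19). Within the lung, the level at 14 days was lower than the naive level by a log2 ratio of −1.57 (−1.60 to −1.54), the 22nd lowest of the 7957 genes. In blood the same comparison gave −0.33 (−0.37 to −0.28). Il12rb2 lies opposite Serbp1 on the other strand, whose level was 536 to 594 CPM in the 6 groups.

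Il12rb1, the chain shared with the IL-23 receptor, was sparse and ran the other way. It was at 6.65 CPM in naive lung, 9.13 in 6 h lung and 11.2 in 14 days lung, and at 11.5, 14.2 and 14.8 CPM in naive, 6 h and 14 days blood. These levels rested on 156 to 345 UMIs per group. Blood was thus higher than lung at each time, with log2 ratios of lung over blood of −0.79 (−1.07 to −0.51), −0.64 (−0.87 to −0.41) and −0.40 (−0.65 to −0.16) in naive, 6 h and 14 days mice. In lung the 14 days level exceeded the naive level by 0.75 (0.47 to 1.04). With all UMIs counted and depth not made equal, a UMI of Il12rb1 was found in 4.05% to 10.7% of cells, against 77.4% to 97.1% for Il12rb2.

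The IL-18 receptor chains varied less. Il18r1, the binding chain, was at 557, 444 and 469 CPM in naive, 6 h and 14 days lung and at 584, 466 and 413 CPM in the corresponding blood groups, a highest over lowest ratio of 1.42. Naive cells of both tissues were above the later groups. Lung and blood were close in naive mice (log2 ratio −0.067) and at 6 h (−0.068), and both of these signs turned under median-of-ratios scaling (0.011 and 0.024). At 14 days lung was higher by 0.19 (0.14 to 0.23). Il18rap, the signaling chain, was at 787, 644 and 472 CPM in naive, 6 h and 14 days lung and at 673, 547 and 588 CPM in blood. It was higher in lung in naive mice (0.23) and at 6 h (0.24), and at 14 days it was lower in lung (−0.32, −0.35 to −0.28). The lung at 14 days was thus its lowest group, at a log2 ratio of −0.74 (−0.77 to −0.71) to naive lung.

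Stat4, which relays the IL-12 signal to the nucleus, followed Il12rb2 at a smaller scale. Its level was 1278 CPM in naive lung, 1125 in 6 h lung and 657 in 14 days lung, and 762, 629 and 556 CPM in naive, 6 h and 14 days blood. Again the naive and 6 h lung groups were the highest. The log2 ratio of lung over blood was 0.75 in naive mice and 0.84 at 6 h, and at 14 days it was 0.24. Within the lung, 14 days over naive gave −0.96 (−0.99 to −0.93).

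The receptor kinases had lower levels and no such peak. Tyk2 was at 92.7, 87.3 and 64.7 CPM in naive, 6 h and 14 days lung and at 126, 110 and 96.4 CPM in blood, so blood was above lung in each library (log2 ratios −0.45, −0.33 and −0.58). Jak2 stayed between 63.9 and 76.6 CPM in all 6 groups, the narrowest range of the 8 genes, and 4 of the 5 neighboring pairs in its order were within counting error.

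More of the 8 genes differed between tissues than between naive and 6 h, and the same held for all tested genes. The largest number, 5 of the 8, differed in 14 days over naive lung. A log2 ratio of 0.5 in either direction was used as the fold for counting, with no test. Lung over blood in naive mice, 3 of the 8 were higher (Ifng, Il12rb2, Stat4) and 1 lower (Il12rb1), where 7.35% of the tested genes were higher and 5.83% lower. At 6 h the same 3 were higher and the same 1 lower, with 6.82% and 5.61% of tested genes. At 14 days, 2 of the 8 were higher (Ifng, Il12rb2) and 1 lower (Tyk2), with 6.31% and 6.03%. This Tyk2 call held in 8 of 12 alternatives, and the Ifng call in naive mice in 9 of 12.

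From naive to 6 h, none of the 8 genes reached this fold in lung, where 0.792% of tested genes were higher and 0.302% lower, or in blood, where 0.54% were higher and 0.377% lower. In lung 1 of the 8 (Il12rb1, 0.46 here) did so under 4 of 12 alternatives, with values of 0.50 to 0.58. In 14 days over naive lung, 1 was higher (Il12rb1) and 4 were lower (Il12rb2, Stat4, Il18rap, Tyk2), against 4.76% higher and 15.8% lower among tested genes. Tyk2 (−0.52) kept to this side of the fold in 6 of 12 alternatives, and 3 of the 8 genes passed relative to genes of like span. In 14 days over naive blood, 1 was lower (Il18r1, at −0.50) and none higher, against 1.43% higher and 7.38% lower. This call held in 4 of 12 alternatives. The median log2 ratio of the 8 was −0.38 in 14 days over naive lung and that of all tested genes −0.19. Contrasts that use the same group share its cells and are not independent of each other.

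**Figure D2:**
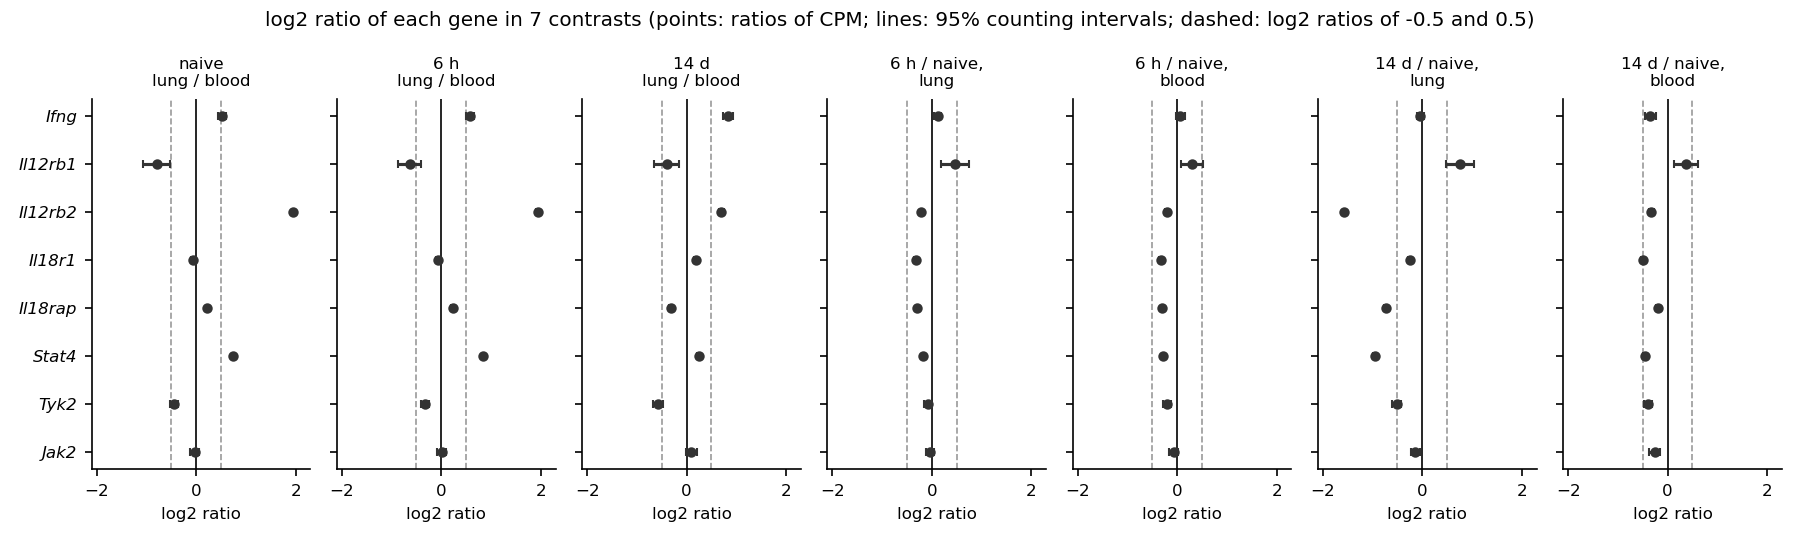
The log2 ratio of each of the 8 genes in 7 contrasts, lung over blood in 3 libraries and later over naive in each tissue; points are ratios of CPM, lines are 95% counting intervals and dashed lines mark −0.5 and 0.5. Il12rb2 lies near 1.95 in the first panels and at −1.57 in 14 days over naive lung, while every point of the 6 h over naive panels is between the dashed lines.

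Several measures moved with these contrasts. Ribosomal protein genes took 12.3% of counts in naive lung and 21.3% in 14 days lung, and 13.0% and 17.6% in blood. Over the tested genes, the median log2 ratio of 14 days over naive lung went from 0.055 in the shortest of the 5 classes of gene span to −0.37 in the longest, and in blood from 0.11 to −0.38. Relative to genes of like span, Il12rb2 was still lower at 14 days in lung (−1.21) but not in blood (0.06), and Stat4 in lung was at −0.59. From the shortest to the longest class, the median of 6 h over naive went from 0.081 to −0.16 in lung and from 0.079 to −0.15 in blood. In 14 days lung over blood it went the other way, from −0.13 to −0.050. No such order with span was seen in naive lung over blood, where the 5 classes were between −0.10 and −0.075. The summed level of 7 dissociation genes was 454 to 572 CPM in lung and 136 to 190 CPM in blood, and among cells thinned to 3000 UMIs without Fos, Egr1, Nr4a1, Hspa1a or Hspa1b, Il12rb2 was higher in naive lung than in naive blood by 2.02. Of the 7 dissociation genes, Egr1 was highest in naive blood (48.1 CPM) and lowest in 6 h lung (20.7 CPM). All lung cells had been digested, so leaving out some of them cannot separate tissue from digestion. The part of ribosomal content, gene span and digestion in these differences was not tested. Erythroid markers summed to 68.2 CPM in 14 days lung and to at most 0.27 CPM in the other groups, and without cells that held a marker of another cell type Il12rb2 in 14 days over naive lung was −1.52.

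Ifng mRNA was spread unevenly over cells. The share of cells with at least 1 Ifng UMI was 32.7%, 38.9% and 35.7% in naive, 6 h and 14 days lung and 30.3%, 34.9% and 30.6% in blood. In cells thinned to 3000 UMIs each, with the 6 to 86 shallower cells per group left out, it was 20.4% (19.1 to 21.8), 23.5% (22.3 to 24.8) and 22.0% (20.6 to 23.4) in lung and 17.7% (16.6 to 18.9), 18.1% (16.7 to 19.6) and 15.9% (14.4 to 17.6) in blood, so the lung was higher in each library at equal depth. The 5% of cells with the most Ifng before thinning held 41.4% to 47.2% of its UMIs. This share also depends on how sparse a gene is, and it was 30.7% to 34.3% for Jak2 and 53.0% to 100% for Il12rb1. In thinned cells the ratio of variance to mean was 1.90 to 4.05 for Ifng and 1.09 to 1.27 for Jak2. Before thinning, cells with 10 or more Ifng UMIs were rare (5 to 54 cells per group). They were 0.680%, 1.15% and 1.37% of lung cells and 0.435%, 0.583% and 0.242% of blood cells, at unequal depth. After thinning the shares were 0.167%, 0.086% and 0.113% in naive, 6 h and 14 days lung. In blood they were 0.163%, 0.220% and 0.048%. These shares rest on 6, 4 and 4 lung cells and on 7, 6 and 1 blood cells. The cut of 10 UMIs is also stricter after thinning. Such counts are too few to show whether the rise over time in lung was kept at equal depth. The same holds for the higher share in lung at 6 h. The highest single cell held 80 UMIs before thinning, in naive blood. No cell type lacking Ifng was in the sort, and in its place an upper limit of free RNA was set from markers of other cell types in near-empty barcodes: free RNA could account for at most 9.29% of the Ifng UMIs and 5.85% of the Il12rb2 UMIs of any group.

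Il12rb2, in contrast, shifted across most cells of the lung. The median cell before thinning held 7 UMIs in naive lung, 7 in 6 h lung and 2 in each of the other 4 groups. After thinning, cells without an Il12rb2 UMI made up 8.36% of naive lung and 11.9% of 6 h lung, but 40.01% of 14 days lung, against 40.6%, 46.1% and 48.7% of naive, 6 h and 14 days blood. Cells with 10 or more UMIs before thinning were 36.9%, 37.1% and 8.98% of lung cells and 1.74% to 2.51% of blood cells. Thus the 14 days lung lay near blood at its lower end and kept more cells at the upper end. The ratio of variance to mean in thinned cells was 2.55, 2.66 and 2.52 in naive, 6 h and 14 days lung and 1.47 to 1.60 in blood.

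**Figure D3:**
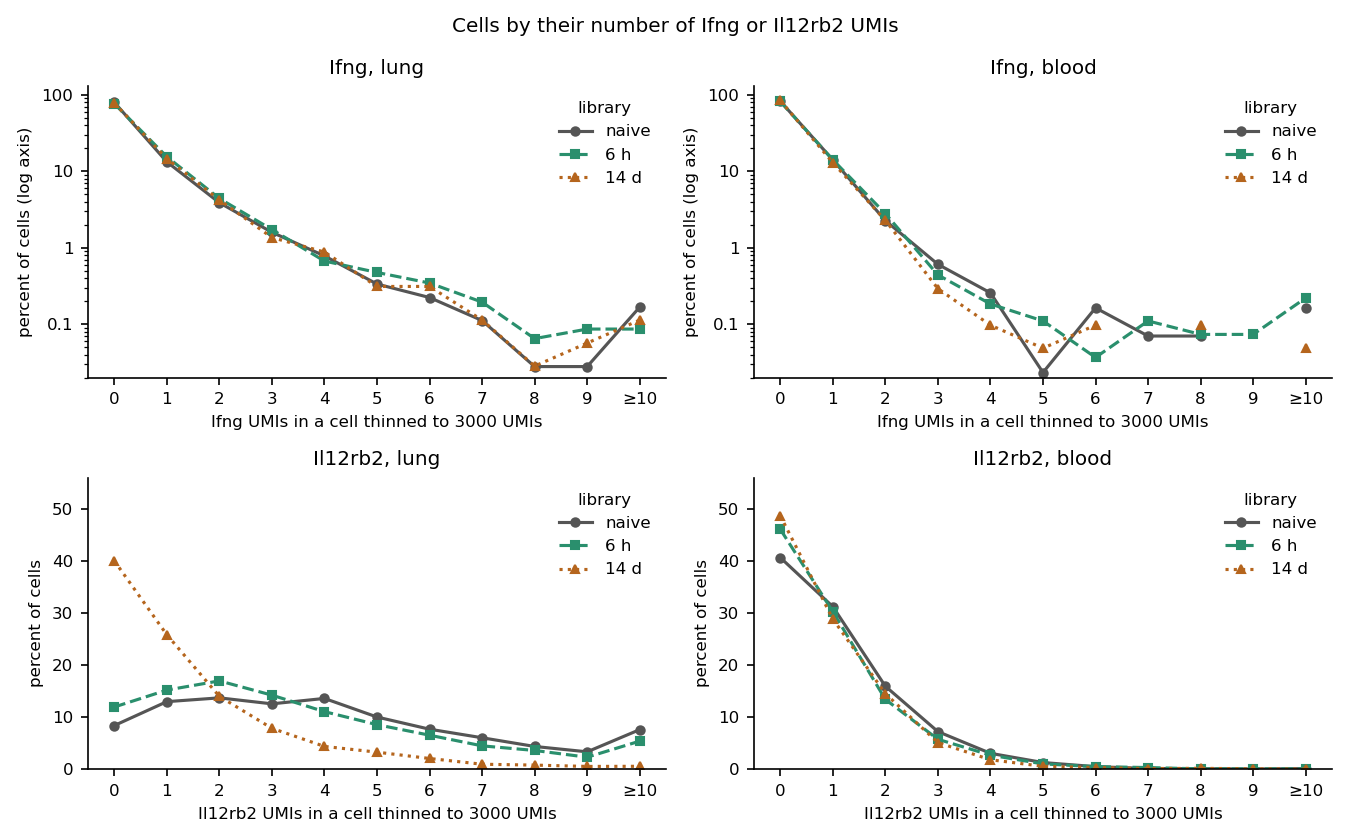
Percent of cells (vertical axis, logarithmic for Ifng and linear for Il12rb2) by their number of Ifng or Il12rb2 UMIs after thinning each cell to 3000 UMIs; lines join the counts of 1 library, and the last point takes all cells with 10 or more. For Il12rb2 the 14 days lung line starts at 40.01% of cells without a UMI, where naive lung starts at 8.36%, and the blood lines lie close together.

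Receptor genes differed little between cells with and without Ifng mRNA when 1 UMI defined a cell with Ifng. In thinned cells, those with an Ifng UMI were compared with those without, group by group, with the split itself resting on Ifng. Il12rb2 was higher in cells with Ifng in 6 of 6 groups, by a median log2 ratio of 0.13 (lowest 0.04, highest 0.26), and its counting interval was above 0 in 4 of them. With 2 or more UMIs as the cut the median was 0.27 (lowest 0.015, highest 0.72). Il18r1 (median −0.02), Il18rap (0.02), Stat4 (−0.03) and Tyk2 (−0.02) lay between −0.10 and 0.18 in every group. Jak2 had a median of 0.14 and ran from −0.04 to 0.20, and the sparse Il12rb1 ran from −0.95 to 0.39.

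Larger ratios were found for genes picked by this same split. Of the 3702 genes with a mean of at least 50 CPM, 202 were higher in cells with Ifng in all 6 groups. The chemokine Ccl3 led them by its lowest ratio over the groups (1.15), with a median of 1.75. Its level in cells with and without Ifng was 636 and 205 CPM in naive lung, 489 and 220 in 6 h lung, 721 and 235 in 14 days lung, 820 and 184 in naive blood, 725 and 179 in 6 h blood, and 604 and 165 in 14 days blood. Ccl3 was picked by its lowest ratio of the 6, so a higher level in every group was fixed by that choice. Ccl4 followed (median 1.41), then the receptor-induced nuclear receptor Nr4a3 (1.21), the chemokine Xcl1 (1.05), the adhesion molecule Icam1 (0.73) and Nr4a1 (1.48). The next were Nfkbia (0.70) and Nfkbiz (0.57), inhibitor-family genes induced by NF-kB, the survival gene Bcl2a1b (0.67) and the NF-kB subunit Rel (0.49). Of the 10 measured genes known to respond to IL-12 with IL-18, 8 were higher in all 6 groups (Cd69, Gadd45b, Gadd45g, Xcl1, Ccl3, Ccl4, Nfkbiz and Gzmb), while Map3k8 was higher in 5 and Furin in 1. Xcl1, Ccl3, Ccl4 and Nfkbiz are also named just above from the same split, and the lowest ratio of Gzmb was 0.0008. The share of all genes at 10 CPM that were higher in all 6 groups is not given here. Counts from such lists in this split are therefore descriptions without a background. Of the 16 measured factors that act on Ifng, 4 were higher in all 6 groups, with medians of 0.28 for Nfkb1, 0.27 for Irf8, 0.16 for Nfatc1 and 0.15 for Tbx21, which encodes T-bet. The counting interval was above 0 in 5, 6, 3 and 4 groups for these genes in turn, and the lowest ratio of Tbx21 was 0.0019. Ets1 was lower in all 6 (median −0.038), with an interval below 0 in 1, and the other 11 had no common direction.

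Genes of the list taken for dissociation moved with the same split, and whether digestion had induced them in these cells was not tested. All 5 of the measured dissociation genes were higher in cells with Ifng in all 6 groups, again a count without a background. The ranges were wide for Egr1 (0.59 to 2.77), Fos (0.35 to 2.57) and Nr4a1 (0.57 to 2.64), which is itself named above. Jun (0.07 to 0.71) and Dnajb1 (0.0066 to 0.24) differed less, and the Dnajb1 interval was above 0 in 0 groups. For Nr4a1 the ratio was 0.57, 0.73 and 0.82 in naive, 6 h and 14 days lung. In the corresponding blood groups, which had not been digested, the Nr4a1 ratio was 2.21, 2.13 and 2.64. The part of digestion in this link was not tested. When thinned cells with a UMI of Fos, Egr1, Nr4a1, Hspa1a or Hspa1b were left out, a choice made after the data were seen, the median was 0.73 for Ccl3, 0.71 for Ccl4, 0.28 for Icam1, 0.45 for Bcl2a1b and 0.21 for Rel, each still higher in 6 of 6 groups. It was 0.68 for Xcl1, 0.31 for Nfkbia, 0.19 for Nr4a3 and 0.10 for Nfkbiz, each higher in 5 of 6. Gadd45b (0.48) and Gadd45g (0.72) were higher in 5 and Cd69 (0.12) in 3. Il12rb2 was at 0.046 and higher in 5 of 6.

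**Figure D4:**
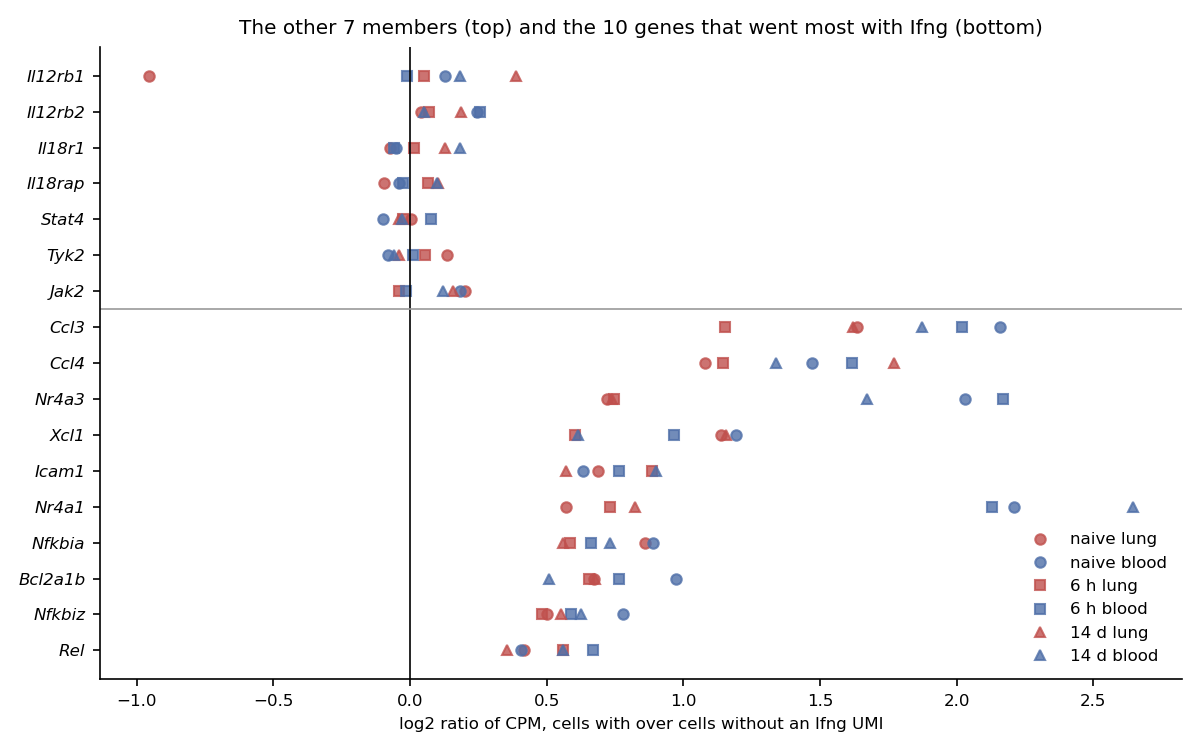
The log2 ratio of CPM in cells with over cells without an Ifng UMI, after thinning to 3000 UMIs; each point is 1 of the 6 groups, with the other 7 pathway genes above the line and the 10 genes with the highest lowest ratio below it. The receptor, kinase and Stat4 points lie near 0 apart from Il12rb1. The 10 genes were picked by their lowest ratio in this same split, so their place above 0 in all 6 groups follows from that choice.

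Within the groups, thinned cells were split by other genes. Cells with at least 20 UMIs of Ccl4 (4.01% to 5.72% of each group, a cut chosen after the data were seen) held Ifng at 330 to 632 CPM and the remaining cells at 58.5 to 120 CPM, with log2 ratios of 1.78 to 2.88. Ccl4 was already among the genes that went most with Ifng in the same thinned cells. The Ifng values of this split thus restate that link and are no separate result. Il12rb2 was higher in the cells with at least 20 Ccl4 UMIs as well, by 0.34 to 0.62 in the lung groups and 0.93 to 1.06 in the blood groups. Cells with a UMI of Emb, the adhesion gene embigin that was higher in lung, had less Ifng than cells without it, by log2 ratios of −0.34, −0.43 and −0.96 in naive, 6 h and 14 days lung and −0.24, −0.47 and −0.90 in blood, of which the naive blood interval held 0 (−0.55 to 0.048). They also had less Il12rb2 (−0.75 to −0.29) and more Stat4 (0.31 to 0.40).

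Maturation of mouse NK cells runs from Cd27 to Itgam, and the receptor genes Il12rb2 and Il18rap differed along it. Il12rb2 was lower in cells with Cd27 and without Itgam than in cells with the opposite pattern in each of the 6 groups (log2 ratios −0.99 to −0.40), and so was Il18rap (−0.75 to −0.33). Stat4 was slightly higher in them (0.09 to 0.25), though its 14 days blood interval held 0 (−0.10 to 0.28). Tyk2 was lower in each group (−0.89 to −0.05), with an interval below 0 only in naive and 14 days lung. Jak2 was higher in naive, 6 h and 14 days lung (0.82, 0.42 and 0.38), and its interval held 0 in each blood group. Il18r1 had no common direction (0.17 in 6 h blood and −0.32 in 14 days blood), and the Il12rb1 interval held 0 in every group. Ifng was lower by −0.61 and −0.60 in naive and 6 h blood, and its interval held 0 in the other 4 groups. These gates rest on single UMIs, so many cells of a gate are misplaced.

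The low Il12rb2 level of the 14 days lung was seen within each gate. Cells with a UMI of Itga1 or Pmepa1, genes of tissue residency and of the response to TGF-beta, made up 35.2% of thinned cells in 14 days lung and 4.38% to 9.72% of the other groups. In 14 days lung these cells had Il12rb2 at 320 CPM and the other cells at 579 CPM, a log2 ratio of −0.86, while the ratio was between −0.15 and 0.05 in the other 5 groups. Among cells without Itga1 or Pmepa1, Il12rb2 in 14 days over naive lung was −1.29 (−1.34 to −1.24), and among cells with either it was −2.17. In the 4 gates of Cd27 and Itgam the ratio lay between −1.87 and −1.28. For Il18rap, the corresponding values were −0.45 without and −1.30 with Itga1 or Pmepa1. The lower level of Il18rap in lung than blood at 14 days came to −0.09 (−0.16 to −0.03) among cells without them. Ifng in the 14 days lung was at 100 CPM in the cells with Itga1 or Pmepa1 and at 139 CPM in the others. In 14 days over naive lung, Ifng was at −0.38 (−0.68 to −0.07) among cells with either and 0.24 (0.12 to 0.37) among cells without them.

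**Figure D5:**
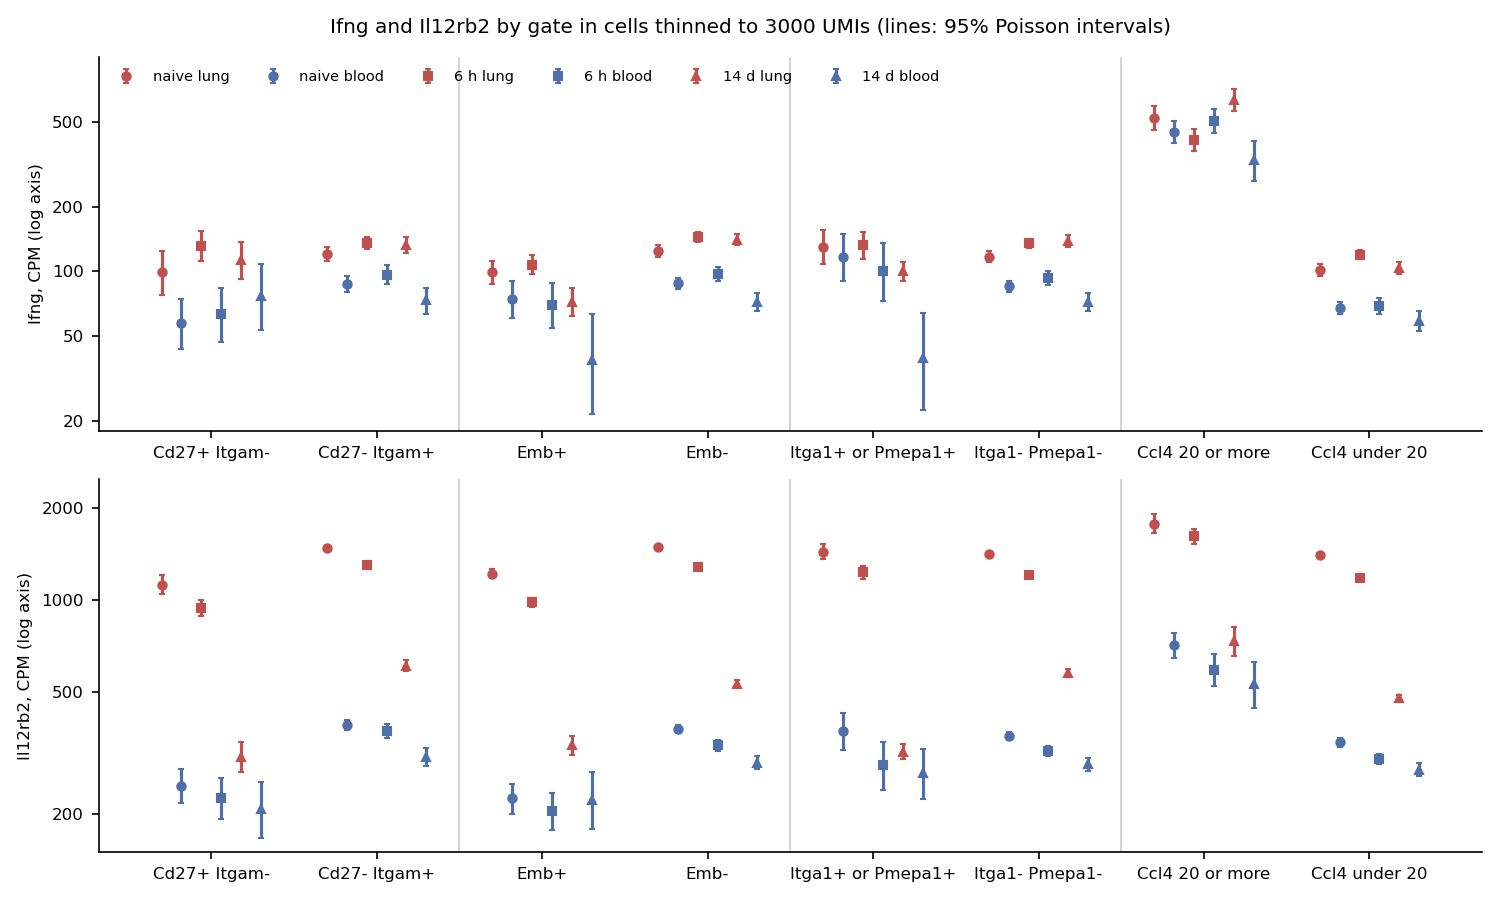
Ifng (top) and Il12rb2 (bottom) in CPM on logarithmic axes, in thinned cells split by Cd27 and Itgam, Emb, Itga1 or Pmepa1, and Ccl4; points are 1 group each, with lung in red and blood in blue, and lines are 95% Poisson intervals. Cells with at least 20 Ccl4 UMIs hold Ifng at 330 to 632 CPM, which restates the link of Ccl4 with Ifng in the same cells. Il12rb2 in 14 days lung lies below naive and 6 h lung within each gate.

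The wider pathway was read from 8 lists of 76 genes, of which 56 reached 10 CPM. Their counts use the same fold and the shares of all genes given above. Of the IL-18 signaling genes, 7 of 8 reached 10 CPM, and in lung over blood only Irak2, a kinase below Myd88, passed the fold. Irak2 was highest in naive lung, 4.34-fold over its lowest level in 14 days blood. It was at 287 and 182 CPM in 6 h and 14 days lung and at 83.4, 85.4 and 70.0 CPM in naive, 6 h and 14 days blood, so its levels ordered the groups much as Il12rb2 did. In 14 days over naive lung, 1 gene of this list was higher (Sigirr, a receptor that dampens the pathway) and 2 lower (Irak2 at −0.74, and the kinase Map3k7), with a list median of −0.25 against −0.19 for all genes tested. The adaptor Myd88 itself stayed between 18.4 and 26.2 CPM. None of the 4 genes beside Il18r1 in the IL-1 receptor cluster reached 10 CPM, and Il1rl1, the IL-33 receptor, was at most at 0.47 CPM.

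Of the ligands, which other cells such as macrophages are known to make, Il12a was at 0.41 to 0.64 CPM, Il12b at 0 to 0.03 CPM and Il18 at 0.39 to 1.27 CPM, and only Il15 reached 10 CPM. The receptor for interferon gamma itself was uneven, with Ifngr1 at 556 to 1307 CPM and Ifngr2 at 0.27 to 0.60 CPM. Of the 5 measured receptors that share a chain or kinase with the IL-12 receptor, 2 were higher (Ifnar1, Ifngr1) and 1 lower (Ifnar2) in naive lung over blood, with a median of −0.48, and Ifngr1 was higher in lung in all 3 libraries.

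Of the JAK-STAT partners and feedback genes, 11 of 12 reached 10 CPM. In naive lung over blood 4 were higher and none lower (Stat3, Stat5a, Stat5b, Socs3), and the same 4 were higher at 6 h. Stat3, which transmits IL-6 and IL-10 signals and can also be activated by IL-12 family cytokines, was at 729, 760 and 425 CPM in naive, 6 h and 14 days lung and at 201, 203 and 173 CPM in blood. In 14 days over naive lung, 3 were higher (Socs1, Cish, Ptpn6) and 3 lower (Stat3, Stat5a, Stat5b), with a list median of −0.17 against −0.19 for all genes tested. Ptpn2, also on this list, had its lowest level of the 6 groups in 14 days lung (125 CPM), and Socs3 did not pass the fold in this contrast. Cish, an inhibitor of cytokine receptors that STAT5 induces, was at 7.54, 15.0 and 30.5 CPM in naive, 6 h and 14 days lung and at 10.2, 15.4 and 17.0 CPM in blood. Socs1 was at 41.5, 55.0 and 70.0 CPM in lung and at 29.6, 48.5 and 49.6 CPM in blood.

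Of the transcription factors that act on Ifng, 16 of 17 reached 10 CPM. None passed the fold at 6 h in either tissue, and in 14 days over naive lung 5 were lower and none higher (Tbx21, Runx1, Ets1, Irf8, Nfil3), with a list median of −0.28. Tbx21 was at 386, 337 and 267 CPM in naive, 6 h and 14 days lung and at 492, 432 and 373 CPM in blood, so unlike Ifng it was higher in blood in each library. The related factor Eomes was at 291, 249 and 223 CPM in lung and 272, 242 and 192 CPM in blood. Runx1 in 14 days over naive lung was at −1.09. Of 6 genes that control the decay of Ifng mRNA, 2 were higher in naive and 6 h lung over blood (Zfp36l2, Zc3h12a) and 4 at 14 days (with Zfp36 and Zfp36l1), where the list median was 0.65 against −0.11 for all genes tested. Zfp36l2, which destabilizes cytokine mRNAs, was at 1056, 965 and 1059 CPM in lung and 337, 308 and 433 CPM in blood, an order of tissues like that of Ifng.

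Of 14 genes known to be induced by IL-12 with IL-18, 10 reached 10 CPM. At 6 h over naive, 4 were higher in lung (Cd69, Gadd45b, Gadd45g, Xcl1) and 1 in blood (Xcl1), with none lower, although Ifng itself did not pass the fold. In naive lung over blood 2 were higher (Gadd45b, Nfkbiz) and 2 lower (Gadd45g, Xcl1), with a list median of 0.14, and at 6 h 3 were higher and 1 lower, with a median of 0.12. In 14 days lung over blood 6 were higher (Cd69, Gadd45b, Xcl1, Ccl3, Furin, Nfkbiz) and none lower, with a list median of 0.53. In 14 days over naive lung 4 were higher (Cd69, Gadd45g, Xcl1, Map3k8) and none lower, with a list median of 0.26. Xcl1 was at 271, 503 and 862 CPM in naive, 6 h and 14 days lung and at 422, 709 and 350 CPM in blood. Its highest level was thus in 14 days lung, the group in which Il18rap was lowest. The early activation marker Cd69 was at 37.4, 58.1 and 77.5 CPM in lung and 30.9, 35.8 and 23.3 CPM in blood.

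Across the 6 groups, likeness of patterns was measured by Pearson's r of log2 CPM over 7957 genes, as a description of 6 points that share libraries in pairs. The genes most like Ifng were Ptprj (0.992), Larp1b (0.986), Mgat4a (0.983), Zc3h12a (0.983) and Rab8b (0.982). Ptprj, a receptor phosphatase, was at 100, 108 and 95.6 CPM in naive, 6 h and 14 days lung and 46.7, 54.9 and 35.8 CPM in blood. The gene most like Il12rb2 was Cnnm2 (0.999), at 166, 134 and 33.5 CPM in lung and 24.4, 17.9 and 17.1 CPM in blood. Those most like Il18rap were Ccdc71l (0.995) and Tor1b (0.995). Among the 8 genes, Il12rb2 was most like Stat4 (0.96) and least like Il12rb1 (−0.94), and Ifng was closest to Il12rb2 (0.84).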

How the data were processed

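The files held raw UMI counts per gene and barcode, as deposited by the authors, from 3 libraries of the 10x 3′ v3.1 kit. Per the labels the reads had been aligned to GRCm38.p6 with Cell Ranger, the matrix headers name version 7.1.0, and the authors used Seurat 5.0. Whether intron reads were counted is not given in the sources used here. Barcodes with 800 to 5000 genes and at most 6% mitochondrial counts were kept (5785 to 8385 per library) and placed in lung or blood where 1 hashtag held at least 90% of tag counts; 141 to 342 per library had neither and were left out. The pairing of hashtag and tissue follows the order in which the study's methods list them. No doublet caller was run, and leaving out the 5% deepest cells was tried.

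Counts were summed per group (16936897 to 35922737 UMIs) and scaled to CPM. With 1 library per group no test was run and no replicate check exists. Levels carry exact 95% Poisson intervals, ratios and shares exact binomial ones, and differences between log2 ratios normal approximations, for counting error only. The ratio intervals were checked on simulated data of independent Poisson counts. That check tests the calculation and not how far cells vary. Replicate mice could not be told apart in a library. The fold was a log2 ratio of 0.5 over genes with a mean of at least 10 CPM. Splits and gates used cells thinned to 3000 UMIs. Shares of cells used thinned cells where this is stated and all UMIs elsewhere. The genes, lists and comparisons were chosen with earlier results of these data known. The genes named beside the 8 were those of the pathway lists past the fold in at least 1 contrast or partners of the 8, the 10 genes with the highest lowest ratio between cells with and without Ifng, and the 5 genes most like each of Ifng, Il12rb2 and Il18rap, or fewer of them. Python 3.11.15, numpy 2.4.6, scipy 1.17.1 and pandas 2.3.3 were used.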

Additional observations from a re-analysis of the deposited data

Results flagged for a closer look

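The IL-18 receptor chains had lung over blood differences of opposite direction at different times, and this difference between times was not tested. For Il18r1 the log2 ratio was −0.067 in naive mice and −0.068 at 6 h but 0.19 at 14 days, and the first values turned to 0.011 and 0.024 under median-of-ratios scaling. For Il18rap it was 0.23 in naive mice and 0.24 at 6 h but −0.32 at 14 days.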

How the results depend on the processing

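Each of the 8 genes was recomputed under 12 alternatives in 7 contrasts. Of the 672 ratios, 526 stayed within the counting interval of the main value, and no ratio of a gene past the fold changed sign. Each contrast set 1 group against 1 group, so none had a replicate to leave out. No paired analysis was possible within a contrast because it holds 1 group per arm, and a fit of lung against blood paired over the 3 libraries, which differ in treatment, was not run. Every value here rests on counting error alone, so how far mice differ is unknown.

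Relative to genes of like span, Ifng was at 0.62, 0.67 and 0.96 in lung over blood (naive, 6 h, 14 days), 0.036 in 6 h over naive lung and −0.45 in 14 days over naive blood. Il12rb2 was then at 2.05, 2.05 and 0.75 in lung over blood, −0.057 and −0.053 in 6 h over naive lung and blood, and −1.21 and 0.057 in 14 days over naive lung and blood. The number of the 8 genes past the fold was 3 in 14 days over naive lung and 0 in blood. Under median-of-ratios scaling, Ifng was at 0.67 and 0.94 in 6 h and 14 days lung over blood, 0.12 in 14 days over naive lung and −0.21 in blood, and Il12rb2 at 2.03, 2.03 and 0.81 in lung over blood, −0.18 in 6 h over naive lung, and −1.41 and −0.19 in 14 days over naive lung and blood. The genes past the fold were then 1 in 6 h over naive lung and 0 in 14 days over naive blood. This scaling moved the median of all genes in 14 days over naive lung from −0.19 to −0.019. With totals that left out mitochondrial and ribosomal genes, Ifng in 14 days over naive lung was 0.12, and Il12rb2 was 0.77 in 14 days lung over blood, −0.19 in 6 h over naive lung, and −1.41 and −0.24 in 14 days over naive lung and blood, with 0 genes past the fold in that blood contrast.

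With free RNA subtracted, Il12rb2 was 1.99 and 2.00 in naive and 6 h lung over blood. In cells thinned to 3000 UMIs, Il12rb2 was 0.75 in 14 days lung over blood and −1.54 in 14 days over naive lung, Ifng was 0.19 and 0.080 in 6 h and 14 days over naive lung, and 1 gene passed the fold in 6 h over naive lung. In thinned cells without stress genes, Il12rb2 was 2.02 in naive lung over blood and −0.26 in 6 h over naive lung, and Ifng was 0.19 and 0.12 in 6 h and 14 days over naive lung and −0.11 in 14 days over naive blood. Without cells that held markers of other types, Il12rb2 was 0.77 in 14 days lung over blood and −1.52 in 14 days over naive lung, with 0 genes past the fold in 14 days over naive blood. With equal weight per cell, Il12rb2 in 14 days over naive lung was −1.52, and both this and leaving out the 5% deepest cells gave 1 gene past the fold in 6 h over naive lung and 0 in 14 days over naive blood. The cause of these shifts was not tested.

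The side of the fold was least settled for Il18r1 in 14 days over naive blood (same side in 4 of 12 alternatives). Tyk2 in 14 days over naive lung followed (6 of 12). Tyk2 in 14 days lung over blood and Il12rb1 in 6 h over naive lung kept their side in 8 of 12. Ifng in naive lung over blood did so in 9 of 12, with a lowest value of 0.45. With a filter at 1 CPM, 5.17% of genes passed the fold in 6 h over naive lung, against 1.09% at 10 CPM and 0.378% at 50 CPM, and 4.95%, 0.917% and 0.405% did in blood.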
